A study of Caenorhabditis elegans with 2 samples.

Results

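Binding regions of the nuclear hormone receptor NHR-28 were examined at 8 genes of mitochondrial fatty acid uptake and beta-oxidation in Caenorhabditis elegans: acs-2, cpt-1, cpt-2, ech-1.1, ech-1.2, hacd-1, kat-1 and acaa-2. The genes were chosen by their known function, out of 19973 protein-coding genes, with earlier results of these data known. Their counts and signals are therefore descriptions and were not tested. A region was given to a gene when its summit, the base of strongest enrichment, lay anywhere from 3 kb upstream of the gene to the gene end. Of the 8745 regions in the optimal set, which the authors derived from both replicates, 15 met this rule.

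The data came from chromatin immunoprecipitation followed by sequencing (ChIP-seq) of an eGFP-NHR-28 fusion protein in whole L4 larvae. Both samples were of strain OP317, whose genotype is unc-119(ed3) III with the integrated transgene wgIs317, and males and females were pooled. The samples form 1 group of 2 biological replicates, and the labels leave out the age in hours and the promoter and copy number of the transgene. The antibody field of the labels names only nhr-28. All animals carried both the unc-119 allele and the transgene, so nothing here compares genotypes, and a control without the fusion protein was not analysed here. In whole animals, binding in more cells and more binding per cell cannot be told apart. With 1 group there was no test between conditions, and the values below are descriptions.

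Fatty acids enter mitochondrial beta-oxidation as acyl-CoA esters, which acyl-CoA synthetases make. Carnitine palmitoyltransferases then take part in the transport of the acyl group across the mitochondrial membranes. A repeating cycle of dehydrogenation, hydration, a second dehydrogenation and thiolytic cleavage shortens the chain to acetyl-CoA. In C. elegans the nuclear receptor NHR-49 is known to activate acs-2 and other genes of this pathway during fasting. NHR-28, like NHR-49, belongs to the large nematode family of receptors related to vertebrate HNF4.

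The sequences around 6 of the 15 summits are shown on the strand of the gene, with the summit at position 51 of 101 bases (ce11, genome sequence from RefSeq). The set holds the highest region of acaa-2, acs-2, cpt-1 and hacd-1 and both regions of cpt-2, to show strong and weaker summits with and without a match to the 9 searched motifs. The region of highest signal, at ech-1.2, is not among them. Capitals mark matches, on either strand, to any of the 9. These are TGATAA for GATA factors, the nuclear receptor half-site AGGTCA, its variant with the letters AGTTCA, the HNF4-type element CAAAGTCCA and its shorter core AAGTCCA, the forkhead motif GTAAACA, the E-box written CACGTG, the repeat GAGAGAGA and the TATA-box letters TATAAA. The windows are III:13344665-13344765 (plus strand), V:15566632-15566732 (plus), II:12798950-12799050 (minus), V:1459615-1459715 (plus), IV:11179415-11179515 (plus) and IV:11180195-11180295 (plus), in the order of the lines.
acaa-2: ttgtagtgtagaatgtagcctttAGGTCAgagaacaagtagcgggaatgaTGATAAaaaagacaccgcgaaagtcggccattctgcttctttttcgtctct
acs-2: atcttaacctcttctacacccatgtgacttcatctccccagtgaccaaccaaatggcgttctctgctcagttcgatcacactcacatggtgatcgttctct
cpt-1: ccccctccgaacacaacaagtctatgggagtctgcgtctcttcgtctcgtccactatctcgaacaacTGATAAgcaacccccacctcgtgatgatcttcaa
hacd-1: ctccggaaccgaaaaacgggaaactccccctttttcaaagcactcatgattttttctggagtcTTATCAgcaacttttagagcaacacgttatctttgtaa
cpt-2 upstream: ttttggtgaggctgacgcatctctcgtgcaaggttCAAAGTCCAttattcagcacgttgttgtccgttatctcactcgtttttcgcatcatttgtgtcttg
cpt-2 intron: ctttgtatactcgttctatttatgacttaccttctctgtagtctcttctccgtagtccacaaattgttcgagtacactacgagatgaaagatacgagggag

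All 8 genes held at least 1 optimal region, where 38.1% of all protein-coding genes did. Among genes whose search windows were as long as those of the 8 genes, from 4245 to 11209 bp, the share was 39.6% (5270 of 13302). A summit lay in the gene's own promoter, taken as the stretch from 1000 bp before to 200 bp after any of its annotated starts, at 6 of the 8 genes, against 24.8% of all protein-coding genes. The exceptions were cpt-1 and kat-1. Among the 4372 optimal regions of highest signal, 7 of the 8 genes still had one, against 22.5% of all genes, and ech-1.1 was the gene without one.

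The signal is the authors' own value for each region. The sources used here do not state its scale, so it was read only within a list, as a level or a rank. In the optimal set it ran from 36.2 to 993 with a median of 72.7. Each optimal region had the same signal in the list called on pooled replicates, and its values in the replicate lists come from the region of highest signal covering the summit. The order of the genes by their highest optimal signal was ech-1.2, acaa-2, cpt-2, acs-2, cpt-1, hacd-1, kat-1 and ech-1.1.

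**Figure D1:**
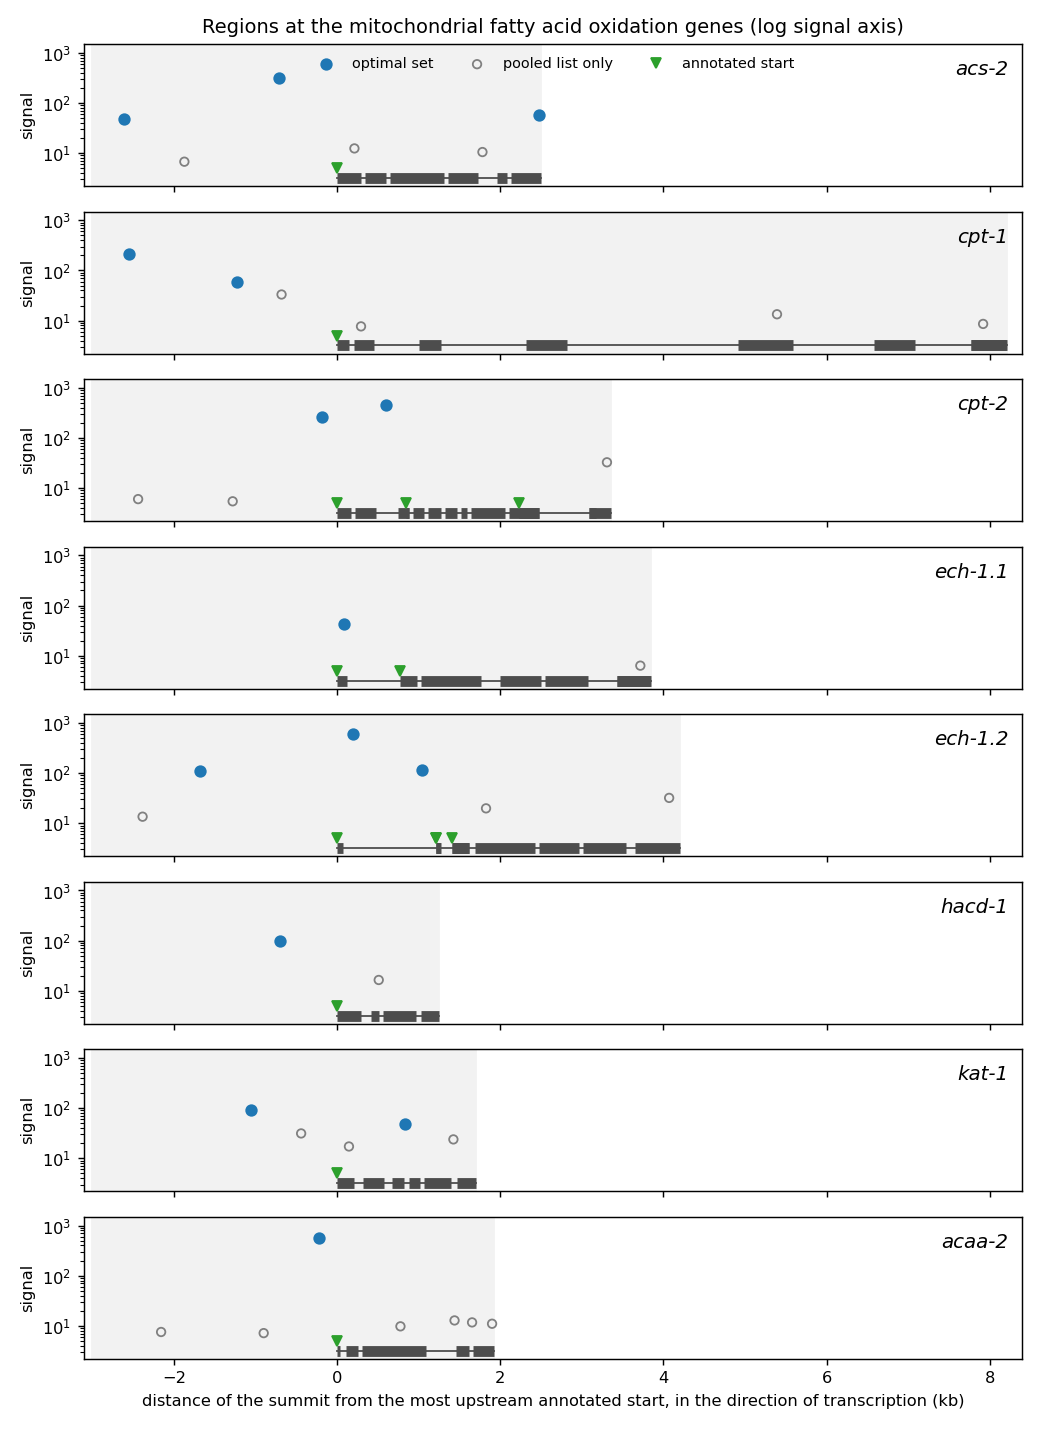
Regions at each gene, drawn by the distance of the summit from the most upstream annotated start (kb, horizontal axis, in the direction of transcription) and by signal (vertical log axis). Filled points are optimal regions, open points are regions of the pooled list below the optimal set, grey shading is the search window, dark boxes are exons and triangles are annotated starts. The highest points of acs-2, cpt-2, ech-1.2 and acaa-2 lie within 1000 bp of the first start, and that of cpt-1 lies at -2548 bp.

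acs-2 encodes the acyl-CoA synthetase that activates fatty acids for mitochondrial oxidation (V:15567394-15569897, plus strand). Its highest region lay upstream in intergenic sequence (V:15566529-15566826) with the summit at -712 bp from the start. The signal there was 320.5 in the optimal set (rank 166 of 8745), 193 in replicate 1 (rank 175 of 30000) and 123 in replicate 2 (rank 207 of 30000). Both replicates therefore placed the region at nearly the same rank. Its 101 bases, shown above, held none of the 9 motifs. Of the 7608 genes with an optimal region, 2.83% had a highest signal at or above that of acs-2.

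The other acs-2 regions were weak. One spanned V:15564603-15564952 with the summit at -2616 bp and a signal of 48.4 (rank 6831). Its rank was 5230 in replicate 1 but 17498 in replicate 2, which was the widest gap between replicates among the 15 regions. The other (V:15569690-15570039, signal 56.8, rank 5812) had its summit in the 3′ UTR of acs-2, in the promoter of the neighbouring gene lsm-5, which encodes an Sm-like RNA-binding protein and whose start was nearer at 515 bp.

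cpt-1 and cpt-2 encode carnitine palmitoyltransferases, which act at the outer and the inner mitochondrial membrane, respectively. cpt-1 (II:12788244-12796452, minus strand) was bound far upstream. Its highest region (II:12798872-12799107) had the summit at -2548 bp, in intergenic sequence with no closer start of any other protein-coding gene. The signal was 217 (rank 527), with 123 (rank 675) in replicate 1 and 97.5 (rank 390) in replicate 2. The TGATAA in its sequence began 17 bases downstream of the summit. A weaker region (II:12797508-12797857, signal 59.3, rank 5565) had its summit at -1231 bp, with ranks of 7722 and 4185 in replicates 1 and 2, and held TGATAA at 2 places as well as AGTTCA and CACGTG. Nearer to the start, at -680 bp, the pooled list held a region with a signal of 33.2, just below the 36.2 at which the optimal set ended.

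cpt-2 (IV:11179645-11183008, plus strand) had a pair of strong regions on either side of its first annotated start. The stronger spanned IV:11180112-11180379 in an intron, with the summit 600 bp downstream of the first start and at -240 bp from an annotated internal start. Its signal was 456 (rank 47), with 293 (rank 38) in replicate 1 and 162 (rank 76) in replicate 2. The upstream region (IV:11179323-11179606) had its summit at -180 bp and a signal of 261 (rank 318), with 163 (rank 310) and 101 (rank 359) in replicates 1 and 2. The intronic region was thus the higher in both replicate lists. The upstream summit also lay in the promoter of C08F8.9, although the start of cpt-2 was the nearest. Its sequence holds CAAAGTCCA, centred 11 bases upstream of the summit, and the intronic sequence holds none of the 9 motifs.

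ech-1.1 and ech-1.2 encode proteins related to the alpha subunit of the mitochondrial trifunctional protein, which joins enoyl-CoA hydratase and 3-hydroxyacyl-CoA dehydrogenase activity. These related genes stood at opposite ends of the order. ech-1.2 (I:6206955-6211155, minus strand) had the highest region of all 8 genes (I:6210777-6211159), with the summit in the first intron at 196 bp from the start. The signal was 609 (rank 17), with 343 (rank 24) in replicate 1 and 271 (rank 14) in replicate 2. Only 0.302% of genes with an optimal region had a highest signal at or above it. A second intronic region (I:6210093-6210181, signal 116, rank 2159) had its summit at -165 bp from an internal start, with ranks of 1955 and 2903 in replicates 1 and 2, and held GTAAACA.

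The remaining region in the ech-1.2 window (I:6212660-6213009, signal 108, rank 2441) had its summit at -1680 bp. It lay in an intron of fars-1, which encodes a subunit of phenylalanyl-tRNA synthetase, and in the promoter of mrpl-23, which encodes a mitochondrial ribosomal protein and whose start was nearer at 950 bp.

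ech-1.1 (V:15357664-15361512, minus strand) had 1 optimal region (V:15361257-15361606), with the summit 80 bp downstream of the first start in the 5′ UTR. Its signal was 43.8 (rank 7460), with 25.9 (rank 7955) in replicate 1 and 20.7 (rank 6345) in replicate 2. The region lay near the lower end of the optimal set, and 89.9% of genes with a region had a highest signal at or above it. Its summit moved by 49 bp in replicate 1 and by -65 bp in replicate 2 along the plus strand of the chromosome.

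hacd-1 encodes a 3-hydroxyacyl-CoA dehydrogenase (V:1460369-1461613, plus strand). Its single region (V:1459490-1459839) lay upstream in intergenic sequence, with the summit at -704 bp. The signal was 99.3 (rank 2802), with 58.1 (rank 3141) in replicate 1 and 42.6 (rank 2473) in replicate 2. That is above the median of the optimal set, but 40.0% of genes with a region had a highest signal at or above it. The TGATAA match lay on the other strand, 13 bases downstream of the summit.

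kat-1 and acaa-2 encode thiolases, the enzymes of the last step of the cycle, and they differed in rank. acaa-2 (III:13344937-13346860, plus strand) had 1 optimal region (III:13344538-13344902), with the summit at -222 bp in intergenic sequence. Its signal was 569.9 (rank 24), with 351 (rank 22) in replicate 1 and 226 (rank 24) in replicate 2, and 0.447% of genes with a region reached it. TGATAA began at the summit base itself and AGGTCA, the half-site of many nuclear receptors, began 27 bases upstream. acaa-2 also had 6 regions of the pooled list below the optimal set, with signals of 7.15 to 12.8.

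kat-1 (II:7073814-7075511, plus strand) had a region at -1059 bp (II:7072580-7072929) with a signal of 93.9 (rank 3038), and 56.6 (rank 3284) in replicate 1 and 38.4 (rank 2923) in replicate 2. It lay in the promoter of kars-1, which encodes lysyl-tRNA synthetase and whose start was nearer at 340 bp. A region in a kat-1 intron (II:7074475-7074824) had a signal of 48.9 (rank 6769), with ranks of 9830 and 5183 in replicates 1 and 2. Both lay in the promoter of another gene, kars-1 for the first and T02G5.7 for the intronic one, and neither lay in that of kat-1. None of the 9 motifs was found at either summit.

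**Figure D2:**
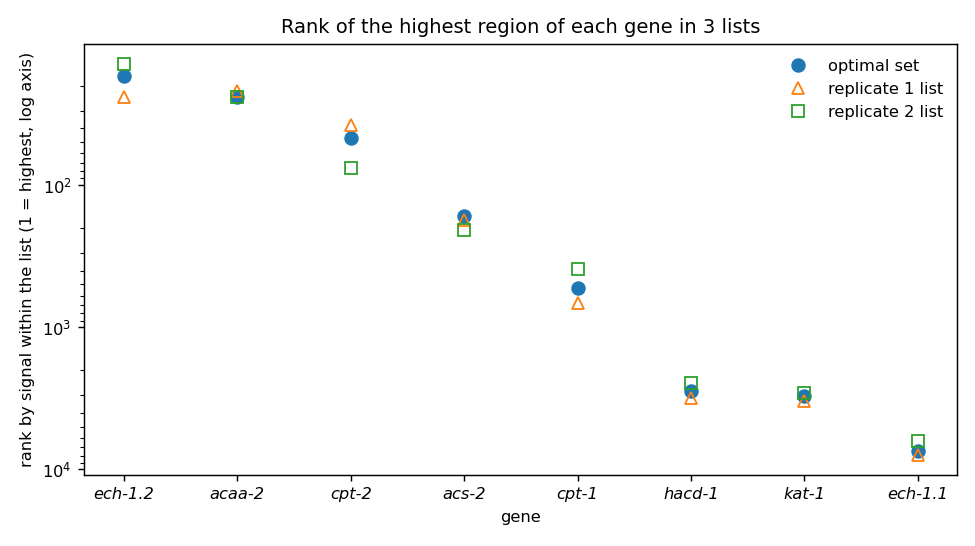
Rank by signal of the highest optimal region of each gene (log axis, 1 is the highest), in the optimal set and at the same summit in the lists of replicate 1 and replicate 2. The ranks of ech-1.2 and acaa-2 cross between replicates. hacd-1 ranks above kat-1 in each list, although their ranges over the replicates overlap, and ech-1.1 is last in each list.

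Across the genes, the 2 replicates gave nearly the same order. The authors derived the optimal set from these same replicates, so some agreement at its regions was built in. ech-1.2 and acaa-2 did not separate beyond the replicates, since their ranks were 24 and 14 against 22 and 24. hacd-1 ranked above kat-1 in both replicates, with 3141 against 3284 in replicate 1 and 2473 against 2923 in replicate 2. Their ranges of rank over the 2 replicates overlapped, however. For every other pair of neighbours, the ranks in replicates 1 and 2 did not overlap. Each of the 15 optimal summits was covered by a region of either replicate list, and 13 of them ranked within the first 8745 in both, as did 78.8% of all optimal regions (6891 of 8745). The exceptions were the upstream region of acs-2 at -2616 bp in replicate 2 and the intronic region of kat-1 in replicate 1. Of all 8745 optimal regions, 8557 were covered in both lists.

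The highest optimal signals of the 8 genes had a median of 269 and quartiles of 97.9 and 485. Over all 7608 genes with an optimal region, the median was 83.2 and the quartiles were 56.8 and 133. The 8 genes thus fell into an upper group of 5 with signals of 217 to 609, a pair near 100 and ech-1.1 at 43.8.

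**Figure D3:**
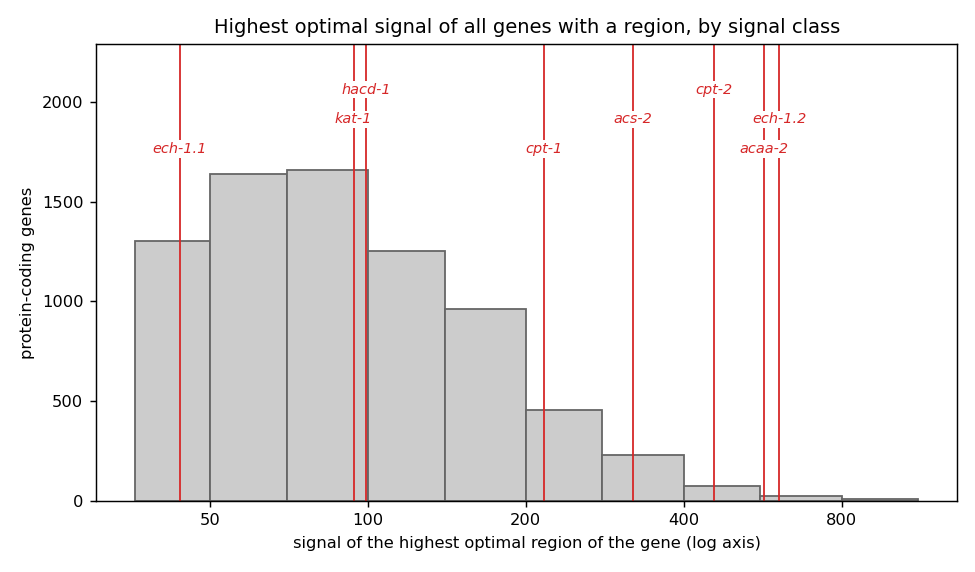
Number of protein-coding genes (vertical axis) by the signal of their highest optimal region (log axis), for the 7608 genes with such a region. Vertical lines mark the 8 fatty acid oxidation genes. Of these, 5 stand at 217 or above, a level that 8.57% of the 7608 genes reach.

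By position, 8 of the 15 summits lay in intergenic sequence, 5 in introns, 1 in a 5′ UTR and 1 in a 3′ UTR. In all, 8 lay in the gene's own promoter and 12 had the gene's own start as the nearest start of a protein-coding gene. The windows of other protein-coding genes held 7 of the 15 as well, and 5 lay in the promoter of another gene. The median distance of the highest summit from the nearest annotated start of its gene was -472 bp. Below the optimal set, the pooled list held 24 further regions at these genes, with signals of 5.47 to 33.2. Of these, 4 had the maximal −log10 q of 4.32 that all optimal regions share, and they lay at cpt-1, cpt-2, ech-1.2 and kat-1 with signals of 31.3 to 33.2.

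Matches to the 9 motifs were counted within 50 bp of each summit, on both strands. TGATAA, the letters bound by GATA factors such as the intestinal regulator ELT-2, was found at 5 of the 15 summits (33.3%), and the share over all optimal summits was also 33.3%. CACGTG was found at 2 summits of the genes and 4.60% of all. The half-site AGGTCA was found at 1 of the 15 and 4.38% of all summits, the variant with the letters AGTTCA at 1 and 5.98%, and the forkhead motif GTAAACA at 1 and 2.61%. GAGAGAGA (5.61% of all) and TATAAA (7.49%) were found at none of the 15. AAGTCCA was found at 1 of the 15 and 0.503% of all, and the match is part of the longer CAAAGTCCA upstream of cpt-2, which only 0.126% of all optimal summits held (11 of 8745).

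A longer list of 30 genes of the mitochondrial pathway was read with the same window. It holds further carnitine acyltransferases, acyl-CoA dehydrogenases, hydratases, thiolases and electron transfer flavoproteins. Of these, 19 (63.3%) had an optimal region and 16 (53.3%) a promoter summit, against the 38.1% and 24.8% of all genes given above. Among the 19 was T02G5.7, whose 2 optimal regions were the same as those of kat-1. The median highest signal of the 19 was 143. The highest was at cpt-4, related to the carnitine palmitoyltransferases (signal 376, rank 103), although at -2693 bp and nearer to the start of swt-7, a gene of the SWEET sugar transporter family. acdh-11, an acyl-CoA dehydrogenase gene, followed with 307 (rank 199) at -123 bp. hadb-1, which encodes the thiolase subunit of the trifunctional protein, had 258 (rank 327) at -283 bp. dif-1, a gene for a carrier related to the carnitine-acylcarnitine translocase, had 249 (rank 365) at -376 bp. At the other end, 11 genes had no optimal region, among them cpt-3, cpt-5 and 7 acyl-CoA dehydrogenase genes.

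The CAAAGTCCA string seen upstream of cpt-2 was also found at summits of some of these genes. It matches the element bound by HNF4-alpha in mammals, and whether NHR-28 binds it was not tested. Of the 11 optimal summits with the string within 50 bp, 4 lay at genes of the 8 or of the longer list. These lists together hold 43 distinct optimal regions, of which the 4 are 9.30%, against 0.126% of all optimal summits (11 of 8745). The 4 include the cpt-2 region already counted above. In the longer list alone, 3 of 30 regions held the string, and 2 did within 25 bp of the summit. The region upstream of cpt-2 had the highest signal of the 11. Those of hadb-1 (258) and B0272.3 (239) had the second and the next highest, and that shared by the windows of acdh-7 and acdh-10 was the sixth (195). B0272.3 encodes a 3-hydroxyacyl-CoA dehydrogenase, and acdh-7 and acdh-10 encode acyl-CoA dehydrogenases. These 3 genes were singled out after their values were seen. The share of 9.30% was not tested, since both lists were chosen with earlier results of these data known. The other 7 of the 11 regions lay at no gene of any list used here, and none of the 17 regions of the peroxisomal list below held the string. The 3 sequences are shown to set beside that of cpt-2 above, on the strand of the named gene with the summit at position 51, in III:8688721-8688821 (minus strand), X:9431180-9431280 (plus) and X:17216346-17216446 (minus), with capitals for the same 9 motifs.
hadb-1: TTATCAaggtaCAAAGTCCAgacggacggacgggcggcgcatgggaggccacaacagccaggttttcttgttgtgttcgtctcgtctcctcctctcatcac
B0272.3: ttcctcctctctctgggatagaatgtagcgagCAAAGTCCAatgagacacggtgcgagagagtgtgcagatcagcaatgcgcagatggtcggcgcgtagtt
acdh-7: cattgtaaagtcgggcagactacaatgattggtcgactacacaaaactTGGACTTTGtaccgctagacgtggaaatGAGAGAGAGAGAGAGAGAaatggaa

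In replicates 1 and 2, these 4 regions ranked 310 and 359 (cpt-2), 287 and 353 (hadb-1), 461 and 419 (B0272.3) and 1079 and 386 (acdh-7). All 4 thus stood within the first 8745 regions of each replicate list.

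Peroxisomal beta-oxidation shortens very long chains and the side chains of ascaroside pheromones, with its own set of enzymes. Of 12 such genes, 11 (91.7%) had an optimal region and 10 (83.3%) a promoter summit, against 38.1% and 24.8% of all protein-coding genes. The 11 had a median highest signal of 232. The highest was at daf-22, the peroxisomal thiolase gene (signal 580.4, rank 21), close to the 569.9 of the mitochondrial thiolase gene acaa-2. It was followed by acox-1.6, an acyl-CoA oxidase gene (332), whose region was nearer to the start of serp-1.1, by dhs-28, a hydroxyacyl-CoA dehydrogenase gene (318), and by acox-1.3 and acox-1.4, oxidase genes that share a region (261). The peroxisomal summits held TGATAA at 13 of 17 regions (76.5%), against 33.3% of all optimal summits. Those of the 8 mitochondrial genes held it at 5 of 15. The difference between the lists was not tested, since both lists were chosen with earlier results of these data known.

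Among 5 regulators of fatty acid oxidation, all had an optimal region and 4 a promoter summit, against 38.1% and 24.8% of all protein-coding genes. nhr-80, a partner of NHR-49, had the highest signal (239), at -581 bp from its own start but nearer to that of H10E21.1. mdt-15, the Mediator subunit that works with NHR-49, had 193 at -1969 bp, nearer to the start of W04D12.1. nhr-49 itself had 155 at -388 bp and nhr-66, another NHR-49 partner, had 148 among 5 regions. nhr-80 thus stood above cpt-1 (217), and the others stood below each of the 5 leading oxidation genes.

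**Figure D4:**
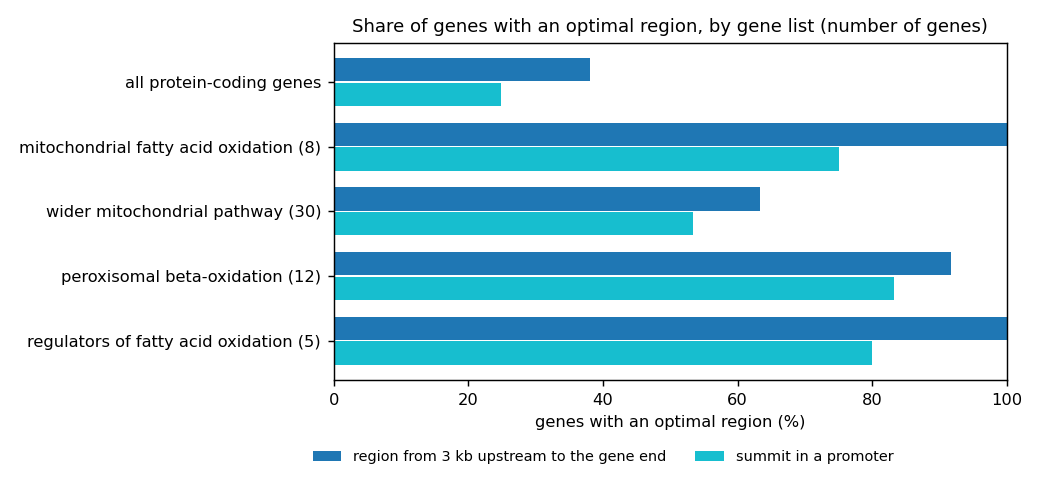
Share of genes (percent) with an optimal region from 3 kb upstream to the gene end, and with an optimal summit in a promoter, for all protein-coding genes and for each list, with the number of genes in brackets. The share is 38.1% over all genes and 63.3% or more over each list.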

How the data were processed

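The data were region lists of ChIP-seq for eGFP-NHR-28 from 2 biological replicates of L4 larvae. Per the file headers and descriptions, each replicate and their pool were compared with a control alignment to call regions, from which the authors derived the optimal set by the irreproducible discovery rate procedure. The sources used here do not name the caller, its version or the thresholds. The deposited signal and −log10 q value of each region are the authors' own. Their scale is not given, read depth is unknown, and so signal was used only within a list. The ce11 lists were used, and the ce10 lists were not.

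The optimal set held 8745 regions, all among the highest by signal of the 29697 in the pooled list. Each replicate list held 30000. A summit beyond the end of its region (1 optimal entry) was set to the last base. Genes came from Ensembl release 115 (WBcel235) and sequence from RefSeq of the same assembly. 1 of 31 symbols of the longer mitochondrial list, T02G5.4, matched no protein-coding gene and was not used. Python 3.11.15, numpy 2.4.6, pandas 2.3.3 and matplotlib 3.10.9 were used, and the assignment of regions to genes was checked on made-up genes.

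The genes and lists were chosen with earlier results of these data known, so no test was made on them. Named were all 8 genes with every optimal region, the 4 genes of highest signal in each other list and any gene with a nearer start. Beyond this rule, 3 genes with CAAAGTCCA (marked in the text), 2 genes without a region (cpt-3 and cpt-5) and 2 whose promoters held a summit (C08F8.9 and T02G5.7) were named after their values were seen. Alternatives changed the window, the assignment, the promoter, the motif window and the part of the optimal set used, and left out each replicate. To leave out a replicate, the 8745 regions of highest signal in the other replicate list were read. The optimal set was not derived again, and its size was kept.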

Additional observations from a re-analysis of the deposited data

How the results depend on the processing

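Of the counts and medians, 33 alternative values lay within 1.5 times the reported count or equalled the reported median, and 5 did not. Without the gene body the number of optimal regions at the 8 genes was 9 in place of 15. The median highest signal was 320.5 with a window from 1 kb upstream and 217 without the gene body, in place of 269. With the 4372 optimal regions of highest signal alone, 12 genes of the longer mitochondrial list had a region in place of 19. Measured from the most upstream annotated start, the median distance of the highest summit was -463 bp in place of -472 bp. Of the signals of single genes, 33 alternative values were unchanged and 4 were not. ech-1.2 was at 108 and cpt-2 at 261 without the gene body. kat-1 was at 48.9 both with the 1 kb window and when regions counted only for the nearest start. Using only the 4372 regions of highest signal cannot change a gene's highest signal, and counting any overlap cannot lower it. Genes left without a region by an alternative were not counted.

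All 8 genes had a region with every alternative except the 1 kb window (7, without cpt-1), the window without the gene body (7, without ech-1.1) and the 4372 regions of highest signal (7, without ech-1.1). The share of all genes then was 28.1%, 33.0% and 22.5%. The number of genes with a promoter summit ranged from 4 with a narrow promoter (500 bp upstream to 100 bp downstream), which held a summit at 19.7% of all genes, to 8 with a wide one (2000 bp to 500 bp), which did at 31.5%. Without replicate 1 and without replicate 2 it was 6 and 8 (24.6% and 24.5% of all genes), since replicate 1 had promoter regions at cpt-1 (26.7) and kat-1 (31.6). Leaving out either replicate left 8 genes with a region, 15 or 16 regions, 4 or 6 summits with TGATAA and 19 genes of the longer list. The number of mitochondrial regions with CAAAGTCCA was 3 or 4 with other motif windows (of 8 and 18 in all) and 4 without either replicate (of 12 and 13), alternatives chosen after seeing the data. Unknown read depth, an unknown signal scale and 2 replicates of 1 group limit all values, and no paired analysis was possible because there was 1 group.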
